A study of Mus musculus with 13 samples.

Results

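The miR-29 family is followed here through its 3p arms, mmu-miR-29a-3p, mmu-miR-29b-3p and mmu-miR-29c-3p, in normal thymocytes and in Notch1-driven T-cell acute lymphoblastic leukaemia (T-ALL) of the mouse. The 3 members were chosen by name and not by a measured value, though earlier results of these data were known. They are 3 of the 1122 mouse miRNAs on the array and 3 of the 229 that were tested. Levels were measured on 13 1-colour Agilent arrays, 1 per sample, and every sample came from the strain C57BL/6. DN were CD4-, CD8- cells and DP were CD4+, CD8+ cells, both sorted by flow cytometry from the thymus, with 3 biological replicates each. ES and LS were early-stage and late-stage T-ALL, both CD4+, CD8+ cells sorted from the spleens of chimeras with bone marrow transformed by N1ICD, the active intracellular part of Notch1, again with 3 biological replicates each. M295, a T-ALL cell line derived from the same strain, had 1 array. The vector that carried N1ICD, the age of the animals and the number of animals behind a replicate are not given in the sources used here. Leukaemic cells were taken from spleen and normal cells from thymus, so a difference of disease and one of tissue cannot be told apart.

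A miRNA guides the RNA-induced silencing complex to messenger RNAs that pair with its seed, a short stretch near its 5′ end, and lowers their stability and translation. miR-29 is known for repressing DNA methyltransferases, collagens and other matrix genes and the survival factor Mcl1, and in T cells it restrains the factors T-bet and Eomes and the cytokine interferon gamma. In B-cell lymphoma its genes are repressed by Myc, itself a target of Notch1 in T-ALL, and the family is often described as tumour-suppressive. The study set leukaemic cells of 2 stages beside the thymocyte populations that precede and resemble them, which for this family asks how its members differ between those populations.

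The mature sequences are shown because the seed defines the family and the bases after it tell the members apart. The seed, bases 2 to 8 from the 5′ end, is in capitals, and the sequences are those of RefSeq on build GRCm38.p6.
mmu-miR-29a-3p: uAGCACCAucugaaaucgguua
mmu-miR-29b-3p: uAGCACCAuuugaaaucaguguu
mmu-miR-29c-3p: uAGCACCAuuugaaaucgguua
The first 9 bases were the same in all 3. Counted from the 5′ end, miR-29a-3p and miR-29c-3p differed by 1 substitution, C10U, with the base of miR-29a-3p first. miR-29b-3p differed from miR-29c-3p by G18A, U21G and A22U, and was 23 bases long against 22 for the other two. Among the 1679 mature mouse names in the RefSeq table, only these 3 carried this seed.

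The 3 mature miRNAs came from 4 hairpin genes in pairs on 2 chromosomes. Mir29a (chr6:31062660-31062747, minus strand) and Mir29b-1 (chr6:31063023-31063093, minus strand) were 275 bases apart, and no gene of the reference table spanned either. Mir29b-2 (chr1:195037040-195037120, plus strand) and Mir29c (chr1:195037547-195037634, plus strand) were 426 bases apart, both within the long non-coding RNA gene A330023F24Rik. The hairpins of miR-29b-3p are shown, with the mature arm in capitals, because both loci encode this arm.
Mir29b-1: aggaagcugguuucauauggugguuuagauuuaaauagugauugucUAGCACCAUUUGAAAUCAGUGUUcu
Mir29b-2: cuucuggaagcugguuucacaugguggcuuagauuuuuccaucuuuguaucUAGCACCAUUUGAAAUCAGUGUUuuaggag
The mature arm was the same in both, so its signal sums over the pair of loci. miR-29a-3p is encoded on chromosome 6 alone and miR-29c-3p on chromosome 1 alone. Each member had 2 probes on the array, and since the letters of the probes were not used here, how far a probe separates miR-29a-3p from miR-29c-3p was not tested.

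Between 115 and 244 mouse miRNAs were above background on the primary arrays and 257 on M295, and no spot was saturated. Of the arrays, 2 stood apart, both of early-stage T-ALL. On ES 1 the negative control spots had an SD of 19.0 intensity units against at most 7.11 on any other array, and the fewest miRNAs were above background. ES 3 carried miR-223-3p, a marker of myeloid cells, at a log2 signal of 2.85, where none of the other 12 arrays exceeded -4.89. The thymocyte markers miR-181a-5p and miR-181b-5p were above background on all 13 arrays, with a summed log2 signal of 2.25 to 2.38 in DP, -0.02 to 0.21 in DN, -1.37 to 0.56 in ES, 0.05 to 0.78 in LS and -1.57 in M295. Of 5 stromal markers, 0 were above background on any array. Results are therefore given with and without ES 3 where it changed them.

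All 3 members were above background on all 13 arrays, from 33 to 40 kept spots out of 40 per array. Levels are log2 signals, the background-subtracted intensity divided by the array's 75th percentile over 108 miRNAs detected on every primary array, so that 0 is the brightness of that percentile. Signals of different members come from different probes and are not ranked against each other. As these are bulk samples, fewer cells of a type and less RNA per cell cannot be told apart.

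**Figure D1:**
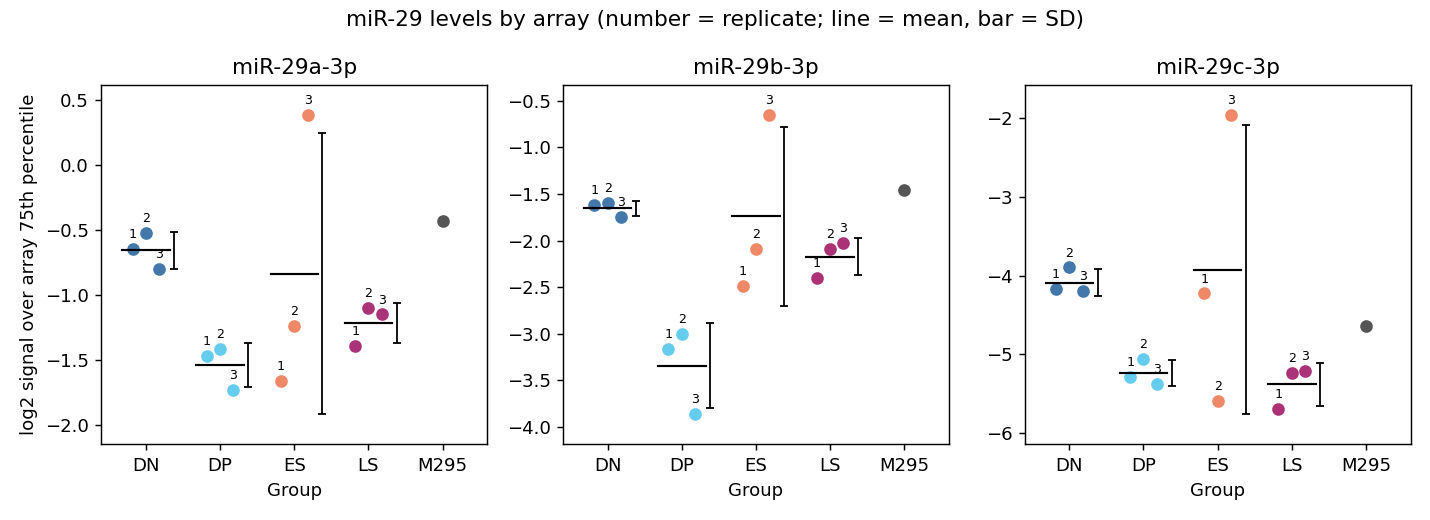
Log2 signal of miR-29a-3p, miR-29b-3p and miR-29c-3p on each array (y axes differ between panels), by group. Points are arrays numbered by replicate, lines are means and bars are SDs of 3 arrays. DN points sit above DP points in every panel, and ES 3 is the highest point of each panel.

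mmu-miR-29a-3p, the chromosome 6 member, had log2 signals of -0.65, -0.52 and -0.80 on DN 1, DN 2 and DN 3, and of -1.47, -1.41 and -1.73 on DP 1, DP 2 and DP 3. In early-stage T-ALL it was at -1.66, -1.23 and 0.39 on ES 1, ES 2 and ES 3, and in late-stage T-ALL at -1.39, -1.10 and -1.15 on LS 1, LS 2 and LS 3. The thymocyte populations did not overlap, the late-stage arrays lay between them, and the early-stage arrays ran from the level of DP to above DN. In order, the group means were -0.65 ± 0.14 in DN, -0.83 ± 1.08 in ES, -1.21 ± 0.15 in LS and -1.53 ± 0.17 in DP (SD, n = 3 each), and no neighbours in this order differed by the test.

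mmu-miR-29b-3p, which both loci encode, had log2 signals of -1.62, -1.60 and -1.74 on DN 1 to DN 3 and of -3.16, -3.002 and -3.86 on DP 1 to DP 3. It was at -2.49, -2.09 and -0.65 on ES 1 to ES 3 and at -2.40, -2.09 and -2.03 on LS 1 to LS 3. DP was the lowest group, and its 3 arrays were below all 9 others, which held for 34 of the 229 tested miRNAs (14.8%). The means were -1.65 ± 0.08 in DN, -1.74 ± 0.97 in ES, -2.17 ± 0.20 in LS and -3.34 ± 0.46 in DP (SD, n = 3 each). In this order DN and ES did not differ by the test, nor did ES and LS, while LS and DP did.

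mmu-miR-29c-3p, the chromosome 1 member, had background-subtracted intensities of 35.7 to 557 units over the 13 arrays. Its log2 signals were -4.17, -3.90 and -4.20 on DN 1 to DN 3, -5.29, -5.06 and -5.38 on DP 1 to DP 3, -4.23, -5.60 and -1.96 on ES 1 to ES 3, and -5.70, -5.24 and -5.21 on LS 1 to LS 3. DN lay above both DP and LS without overlap, DP and LS overlapped, and ES ran from the level of LS to far above DN. The means were -3.93 ± 1.84 in ES, -4.09 ± 0.17 in DN, -5.24 ± 0.16 in DP and -5.38 ± 0.27 in LS (SD, n = 3 each), and no neighbours in this order differed by the test. On ES 1, the noisy array, 31.6% and 57.9% of the spots of its 2 probes were marked well above background, and on LS 1 21.1% and 55.0%.

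Within normal thymus, all 3 members were higher on every DN array than on any DP array, the step from immature CD4-, CD8- to CD4+, CD8+ thymocytes. This held for 93 of the 229 tested miRNAs (40.6%). Only miR-29b-3p passed the test. It was 3.23-fold higher in DN (log2 fold change 1.69, SE 0.42, limma adjusted p = 0.0113), where 67 of 229 tested miRNAs were called (29.3%), 24 of them higher in DN (10.5%). miR-29a-3p was 1.84-fold higher (0.88, SE 0.42, 95% interval -0.06 to 1.82, adjusted p = 0.152) and miR-29c-3p 2.22-fold higher (1.15, SE 0.69, 95% interval -0.37 to 2.68, adjusted p = 0.252). The median difference over all tested miRNAs was 0.15 on the log2 scale.

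The fit shares 1 estimate of spread per miRNA among the 4 groups, ES included. Without ES 3 the differences between DN and DP were the same, and miR-29a-3p (adjusted p = 0.00195) and miR-29c-3p (adjusted p = 0.0146) were called, with 101 of 229 called. The call of miR-29b-3p ended without DP 3 (log2 fold change 1.43, adjusted p = 0.0589). Within slide 1, with 1 array of each, miR-29b-3p was 1.54 higher in DN (adjusted p = 0.144), and within slide 2 it was 1.76 higher (adjusted p = 0.0110).

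Markers of other cells moved with the same groups. In DN the 2 erythroid markers on the array, miR-451 and miR-144-3p, had a summed log2 signal of -0.41 to 0.02 against -6.45 to -5.49 in DP, and miR-144-3p was not above background on any DP array. The myeloid marker miR-223-3p was at -5.31 to -4.89 in DN and not above background in DP. The endothelial and progenitor marker miR-126-3p was at -4.69 to -4.63 in DN and not above background in DP. Their part in the difference of the miR-29 members was not tested.

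Against DP thymocytes, whose surface markers the leukaemic cells share, miR-29b-3p was higher in both stages of T-ALL. Its log2 fold change was 1.60 in ES, or 3.04-fold (SE 0.42, limma adjusted p = 0.0111), and 1.17 in LS, or 2.25-fold (SE 0.42, adjusted p = 0.0328), and neither stage overlapped DP. These comparisons share the DP arrays. Called miRNAs made up 46.3% of those tested for ES against DP, 21% of all being higher, and 58.5% for LS against DP, 32.3% of all being higher. The groups did not overlap, with T-ALL higher, for 28.8% and 41.5% of tested miRNAs.

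The other members moved less in the late stage. miR-29a-3p was 1.25-fold higher in LS than in DP (log2 fold change 0.32, SE 0.42, adjusted p = 0.512), without overlap, and the difference of miR-29c-3p was smaller than its SE (-0.14, SE 0.69, 95% interval -1.67 to 1.38, adjusted p = 0.868). In ES the values against DP were 0.70 for miR-29a-3p (adjusted p = 0.193) and 1.32 for miR-29c-3p (adjusted p = 0.137), both with overlap. Without ES 3 these fell to 0.088 and 0.33, while miR-29b-3p kept its call at 1.06 (adjusted p = 0.00744). Other arrays moved them the other way. Without ES 1, miR-29a-3p was called at 1.11 (limma adjusted p = 0.0434), with 104 of 229 called in all. Without ES 2, miR-29c-3p was called at 2.15 (limma adjusted p = 0.0094), with 112 of 229 called in all.

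The calls of miR-29b-3p rested on few arrays. Without DP 3, the lowest array, ES against DP was 1.34 (adjusted p = 0.0517) and LS against DP 0.91 (adjusted p = 0.124). The call for LS also ended without DP 1, LS 1, LS 2 or LS 3, at adjusted p between 0.0538 and 0.0776. Within slide 1 the differences were 0.88 for ES and 0.92 for LS (adjusted p = 0.154 and 0.107), and within slide 2 they were 2.78 and 1.41 (adjusted p = 0.00281 and 0.0292). On slide 2 the only T-ALL arrays are ES 3 and LS 3, so each of these values sets 1 array against 2 of DP and takes its spread from the other groups. In the authors' deposited values LS against DP was 0.68 (adjusted p = 0.106).

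The erythroid markers also differed between these groups. Their summed log2 signal was -6.45 to -5.49 in DP, -3.48 to 0.68 in LS and -5.98 to -1.36 in ES, and miR-451 was higher on every LS array than on any DP array. miR-223-3p was not above background in DP or LS, nor on ES 1 or ES 2, and miR-126-3p was not above background on any of these arrays. The part of the erythroid markers in the difference of miR-29b-3p was not tested.

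**Figure D2:**
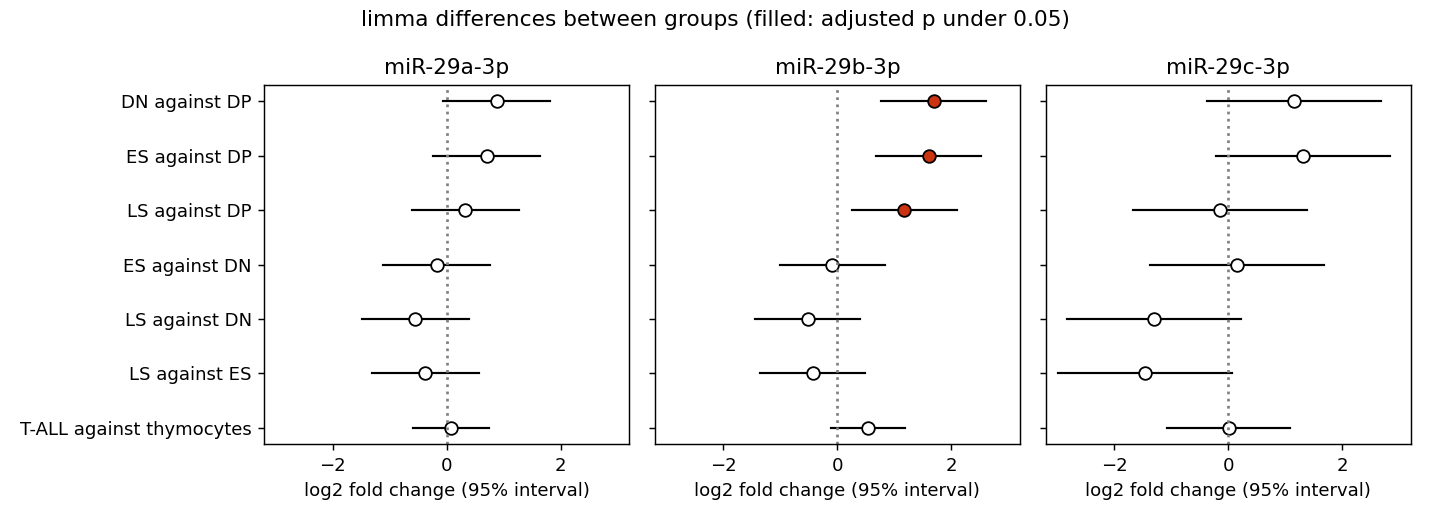
Log2 fold change of each member in the 7 comparisons (x axis), with its 95% interval as a line. Filled circles mark an adjusted p under 0.05, which miR-29b-3p reached in the 3 comparisons with DP.

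Against DN thymocytes, 0 of 3 members were called in either stage, by the limma adjusted p or at an unadjusted p under 0.05, which 41.9% of all tested miRNAs reached for LS and 27.1% for ES. All 3 were nevertheless lower on every LS array than on any DN array, a pattern shared by 23.6% of tested miRNAs. The log2 differences of LS from DN were -0.56 for miR-29a-3p (SE 0.42, adjusted p = 0.373), -0.52 for miR-29b-3p (SE 0.42, adjusted p = 0.391) and -1.29 for miR-29c-3p (SE 0.69, 95% interval -2.82 to 0.23, adjusted p = 0.189). Called miRNAs made up 33.2% of those tested, 7.42% of all being lower in LS. The median over all tested miRNAs was 0.16, so that relative to it the members were at -0.71, -0.67 and -1.45.

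ES 3 is in neither group but enters the shared spread. Without it, miR-29a-3p (limma adjusted p = 0.0185) and miR-29c-3p (adjusted p = 0.00725) were called lower in LS than in DN. miR-29b-3p was not (adjusted p = 0.0901). The count of all called miRNAs rose from 76 to 117 of 229 without that array, with 18.3% of all tested miRNAs lower in LS. miR-29c-3p was also called in the authors' deposited values (-1.36, limma adjusted p = 0.0393), where 76 of 229 were called. Its difference was -1.17 within slide 2, with 1 LS array, and -1.29 within slide 1, with 1 DN array. The erythroid markers of LS had a summed log2 signal of -3.48 to 0.68, so those 3 arrays ran from below DN to above it. miR-126-3p and miR-223-3p were not above background on any LS array. Their part in the difference was not tested.

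ES and DN did not differ by the test for any member, with log2 differences of -0.18 for miR-29a-3p, -0.087 for miR-29b-3p and 0.16 for miR-29c-3p and 95% intervals that reached from -1.12 to 0.76, from -1.01 to 0.83 and from -1.36 to 1.69. Of all tested miRNAs 6.55% were called. Without ES 3 the differences were -0.79 (limma adjusted p = 0.0222), -0.63 (adjusted p = 0.147) and -0.82 (adjusted p = 0.149), all lower in ES. Of all tested miRNAs 23 of 229 were then called. With each array scaled over all mouse miRNAs they were 0.059, 0.15 and 0.40, none called. Under the main scaling, leaving out 1 array at a time gave highest differences of 0.23, 0.29 and 1.00, none called.

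Between stages, LS was lower than ES by 0.38 for miR-29a-3p, 0.43 for miR-29b-3p and 1.46 for miR-29c-3p on the log2 scale as group means, with SEs of 0.42, 0.42 and 0.69 and adjusted p of 0.638, 0.556 and 0.328. None of the 3 was called, and 0 of 3 had an unadjusted p under 0.05 in limma, where 2.62% of all tested miRNAs were called and 14.8% had such a p. The stages overlapped for every member, and did not for 11.4% of tested miRNAs. Without ES 3 the log2 differences of LS from ES were 0.24 for miR-29a-3p and 0.11 for miR-29b-3p, in the opposite direction, and -0.47 for miR-29c-3p, again with 0 of 3 called, while the number of called miRNAs in all rose from 6 to 55.

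ES 3 was the highest of the 12 primary arrays for all 3 members. Relative to the median of the other 5 T-ALL arrays it was 3.08-fold higher for miR-29a-3p, 2.72-fold for miR-29b-3p and 9.71-fold for miR-29c-3p. It was also the highest of the 12 arrays for 50 of the 229 tested miRNAs (21.8%), more than on any other array, with LS 1 next at 19.2%. Besides miR-223-3p, markers of mature and activated lymphocytes were high on it, with miR-150-5p at a log2 signal of -1.85, miR-146a-5p at -2.20 and miR-155-5p at -2.35. The summed log2 signal of these 3 was -0.53 on ES 3, against -1.91 to -1.77 in DP and at most -2.77 in LS, and miR-146a-5p was above background only on ES 3 and LS 1. miR-126-3p was not above background on ES 3, and 0 of 5 stromal markers were. The highest thymocyte arrays were at -2.37 for miR-150-5p (DP 3) and -2.77 for miR-155-5p (DN 2). Which cells carried these markers on ES 3 was not tested, nor was the part of the markers in its level of miR-29.

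**Figure D3:**
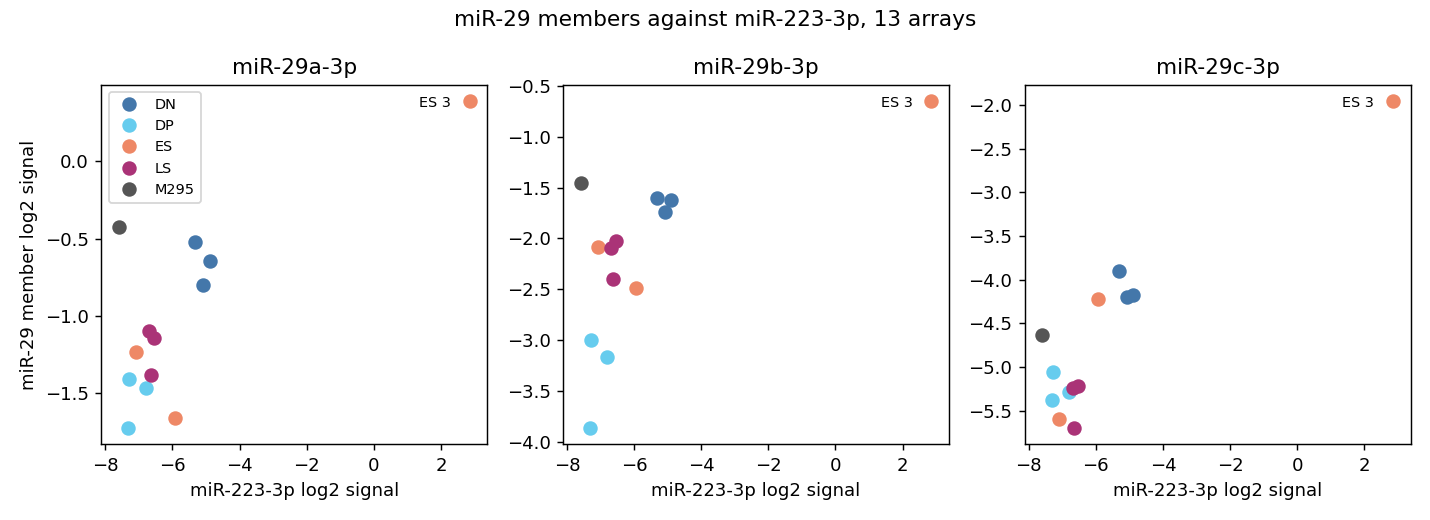
Log2 signal of each member against that of the myeloid marker miR-223-3p, 1 point per array and 13 arrays, coloured by group. ES 3 lies alone at a miR-223-3p signal of 2.85, with the highest level of each member, and DN lies to the right of DP.

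Over both stages, none of the 3 members differed by the test between the 6 T-ALL and the 6 thymocyte arrays. The log2 difference was 0.072 for miR-29a-3p (SE 0.30, 95% interval -0.59 to 0.74, adjusted p = 0.859), 0.54 for miR-29b-3p (SE 0.29, 95% interval -0.11 to 1.19, adjusted p = 0.137) and 0.011 for miR-29c-3p (SE 0.49, 95% interval -1.07 to 1.09, adjusted p = 0.983). No member reached an unadjusted p under 0.05 in limma, where 57.2% of all tested miRNAs were called and 64.2% had such a p. Thymocytes here are the average of DN and DP, whose means lay above and below that of LS for miR-29a-3p and miR-29b-3p.

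Without ES 3 the pooled differences were -0.23 for miR-29a-3p (adjusted p = 0.121), 0.27 for miR-29b-3p (adjusted p = 0.195) and -0.48 for miR-29c-3p (adjusted p = 0.0913). Without ES 1, miR-29b-3p was called at 0.73 (limma adjusted p = 0.0429), with 128 of 229 called in all. Within slide 1 the values were -0.29, 0.13 and -0.46. Within slide 2, where ES 3 is the only early-stage array, they were 0.73, 1.21 and 1.05. Each slide holds groups of 1 array, so these are given as values. The direction for miR-29a-3p and miR-29c-3p thus differed between the slides.

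Scaling each array by its 75th percentile over all 1122 mouse miRNAs, in place of the 108 detected everywhere, moved the median of all tested miRNAs from 0.15 to 0.45 for DN against DP, from 0.16 to -0.31 for LS against DN and from 0.28 to -0.38 for LS against ES. Between 115 and 244 of these 1122 were above background on the primary arrays, fewer than lie over this percentile. It therefore depended on miRNAs not above background, which limits the calls below. Under this scaling all 3 members were called lower in LS than in DN (-1.06, -1.02 and -1.80 for miR-29a-3p, miR-29b-3p and miR-29c-3p, limma adjusted p = 0.0131, 0.0200 and 0.0297). They were also called lower in LS than in ES (-1.12, -1.17 and -2.20, adjusted p = 0.0427, 0.0427 and 0.0488). miR-29a-3p was called higher in DN than in DP (1.18, adjusted p = 0.00483), and miR-29b-3p higher in T-ALL than in thymocytes (0.56, adjusted p = 0.0280). Of the 229 tested, 77 were called in either direction for LS against DN and 9 for LS against ES. For DN against DP 58 were called, and for T-ALL against thymocytes 121. Less the median of all tested miRNAs, the values for LS against DN were -0.75, -0.71 and -1.48 under this scaling and -0.71, -0.67 and -1.45 under the other.

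**Figure D4:**
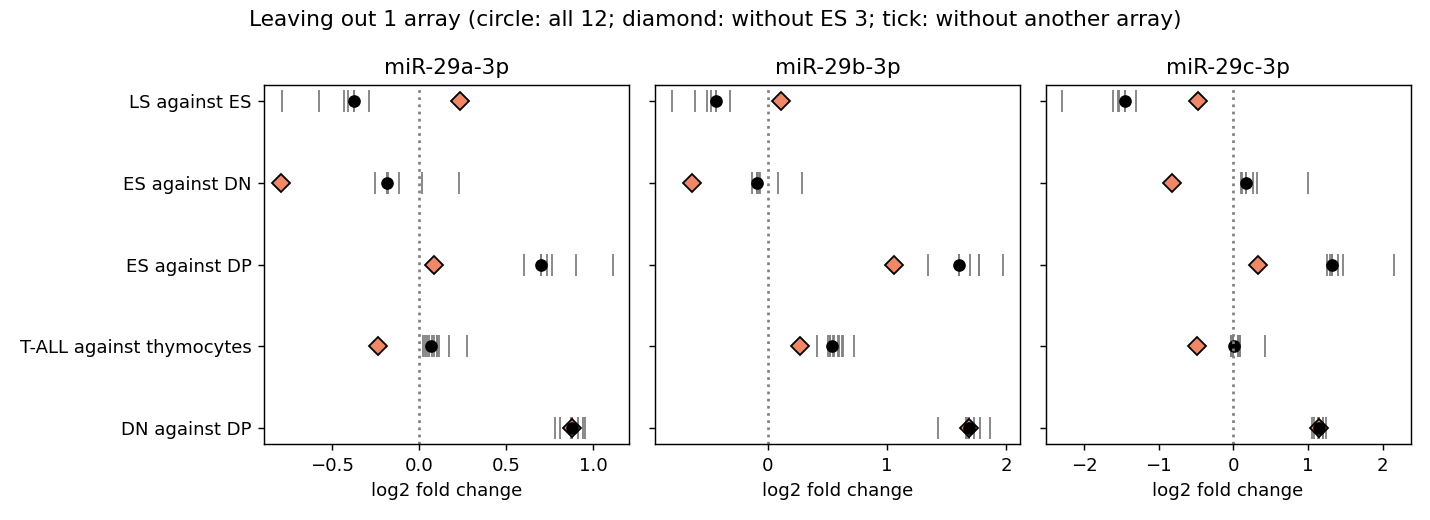
Log2 fold change of each member in 5 comparisons with all 12 arrays (circles), without ES 3 (diamonds) and without each other array in turn (ticks). Leaving out ES 3 moved the comparisons that hold ES to lower values in ES and in T-ALL, and left DN against DP where it was.

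The ratio of 2 members on the same array does not change when that array is scaled by 1 factor, but quantile normalization can change it. There T-ALL differed from thymocytes by 0.11 for miR-29a-3p and 0.42 for miR-29b-3p, against 0.072 and 0.54 under the main scaling. The level of a ratio says nothing of relative abundance, since the probes differ. The ratio of miR-29b-3p to miR-29a-3p was nearly constant outside DP. On the log2 scale it was -0.999 ± 0.071 in DN, -0.91 ± 0.12 in ES and -0.96 ± 0.07 in LS (SD, n = 3 each), and all 9 arrays lay between -1.08 and -0.83. In DP it was -1.81 ± 0.29, from -2.14 to -1.59, below all 9 others, so miR-29b-3p was lower in DP by more than miR-29a-3p. M295, at -1.03, lay inside the range of those 9 arrays.

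T-ALL and thymocytes differed in this ratio by 0.47 (-0.93 ± 0.09 against -1.40 ± 0.48, SD, n = 6 each; exact two-sided permutation test, p = 0.0303, and 0.0909 after adjustment over the 3 ratios). The smallest p this design allows is 0.00216. Among the thymocytes, DN was at -1.08 to -0.94 and DP at -2.14 to -1.59. An exact permutation of 3 arrays against 3 cannot reach the threshold, so the ratio in DP alone is described without a test. Of the spots of 1 of the probes of miR-29b-3p, 16.7% were marked well above background on DP 3, the array with the lowest ratio, and 11.1% on ES 1, the array with the highest. Without DP 3, the difference was 0.32 (exact permutation test, adjusted p = 0.260).

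The ratio of miR-29c-3p to miR-29a-3p sets a member of the chromosome 1 locus against one of the chromosome 6 locus, as far as the probes separate them, which was not tested. It was -3.44 ± 0.08 in DN, -3.71 ± 0.10 in DP and -4.17 ± 0.13 in LS (SD, n = 3 each), with no overlap between these groups, and it was -2.57, -4.36 and -2.35 on ES 1, ES 2 and ES 3. ES 2 lay just below the LS arrays, while ES 1 and ES 3 were above every other array. The share of miR-29c-3p spots marked well above background was 44.7% on ES 1, the noisy array, and 38.5% on LS 1. On ES 2 it was 69.7% and on ES 3 100%, so the value of ES 1 is the less certain. Pooled, T-ALL and thymocytes differed by -0.062 (exact two-sided permutation test, p = 0.872). Without ES 1 and ES 3, which were set aside after their values had been seen, the difference was -0.65, given as a value with no test.

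The ratio of miR-29c-3p to miR-29b-3p was -2.44 ± 0.13 in DN, -1.90 ± 0.34 in DP and -3.21 ± 0.08 in LS. It was -1.74, -3.51 and -1.31 on ES 1, ES 2 and ES 3, with the same limit on ES 1. The pooled difference was -0.53 (exact two-sided permutation test, p = 0.212, adjusted p = 0.318), and its value without ES 1 and ES 3, again with no test, was -1.12.

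**Figure D5:**
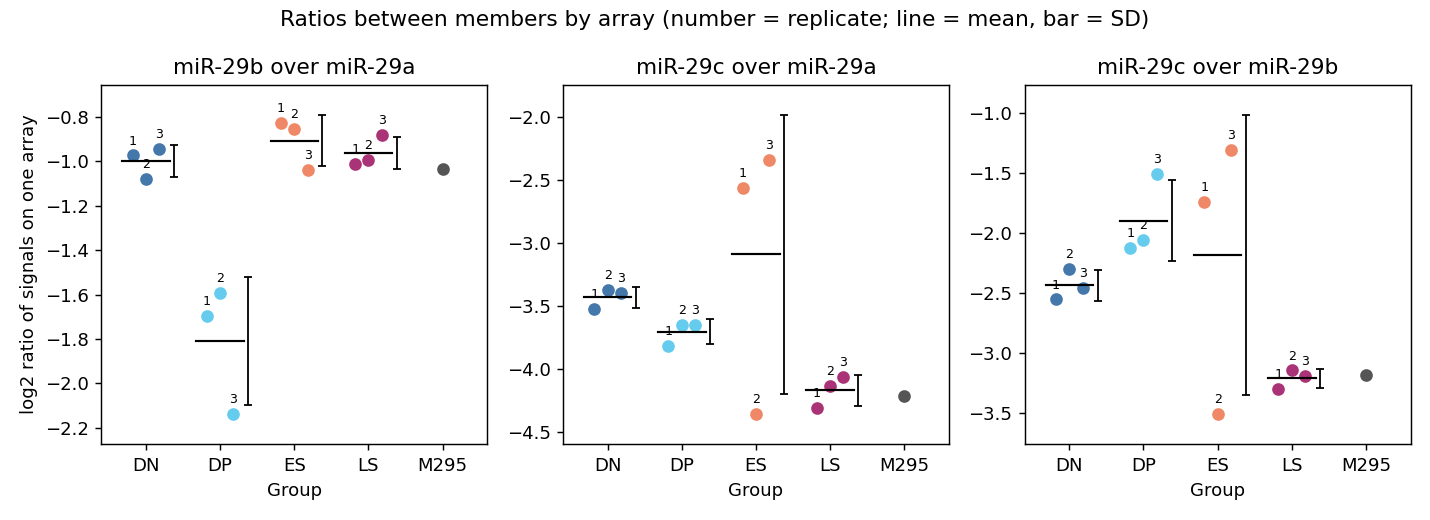
Log2 ratio between members on each array by group, with arrays numbered by replicate, means as lines and SDs of 3 arrays as bars. DP sits below all other groups for miR-29b-3p over miR-29a-3p, and in the ratios with miR-29c-3p, ES 2 and M295 sit near LS while ES 1 and ES 3 sit above them.

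In the cell line M295, the members had log2 signals of -0.42 for miR-29a-3p, -1.46 for miR-29b-3p and -4.64 for miR-29c-3p. The first 2 exceeded all 6 thymocyte arrays and all primary T-ALL arrays other than ES 3, and miR-29c-3p was below ES 3 and ES 1 and above the other 4 T-ALL arrays. With miR-223-3p at the floor and none of the erythroid markers above background, M295 carried neither of those markers. Its ratios of miR-29c-3p to miR-29a-3p and to miR-29b-3p were -4.21 and -3.18. They were within the range of the LS arrays. A single array gives no spread, so no test was made.

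The 5p arms, the strands of the hairpins that are mostly discarded, were not detected. miR-29a-5p, miR-29b-1-5p, miR-29b-2-5p and miR-29c-5p were above background on 0 of 13 arrays. Their background-subtracted intensities were between -4.52 and 14.2 units, so no arm can tell the Mir29b-1 and Mir29b-2 loci apart at this sensitivity. For the 3p arms, the 2 probes of a member moved together over the 12 primary arrays, with a correlation of 0.985 for miR-29a-3p, 0.989 for miR-29b-3p and 0.991 for miR-29c-3p, as a description of probes that share their arrays.

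The members moved together over the same 12 arrays. The correlation of log2 signals was 0.893 between miR-29a-3p and miR-29b-3p, 0.850 between miR-29a-3p and miR-29c-3p and 0.725 between miR-29b-3p and miR-29c-3p, and 0.840, 0.575 and 0.509 without ES 3 and DP 3, the arrays farthest from the median of the family mean. Among all other tested miRNAs, the pattern most like the mean of the 3 members was that of miR-223-3p (r = 0.912, and 0.905 without ES 3 and DP 3), although it was above background on 4 of the 12 arrays. Next were miR-146b-5p (0.767), miR-425-5p (0.761), miR-101a-3p (0.740) and miR-24-3p (0.736). Without ES 3 and DP 3 these were 0.550, 0.750, 0.821 and 0.612. The least like were miR-690 (-0.810), let-7b-5p (-0.803) and let-7c-5p (-0.753), and without those arrays -0.798, -0.595 and -0.454. The order rests on these arrays. Without them miR-17-3p, named after its value was seen, was second at 0.902, where its correlation over all 12 was -0.00080. These are descriptions over arrays of 4 groups and share the scaling of each array.

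Of the other miRNAs known to be lowered by Myc, 16 were tested, and 6 of them were lower and 0 higher in DN than in DP, where 18.8% of all tested miRNAs were lower, with a list median of -0.79 against 0.15 for all on the log2 scale. In T-ALL against thymocytes 8 of 16 fell and 0 rose (median -0.49 against -0.12 for all, with 25.8% of all lower). Without ES 3 13 of 16 fell, with a list median of -0.69 against -0.058 for all and 34.1% of all tested miRNAs lower. The falls with the greatest size were miR-26a-5p (-1.65, SE 0.40, adjusted p = 0.00612), miR-34a-5p, a target of p53 (-1.60, SE 0.53, adjusted p = 0.0266, above background on 3 of 6 T-ALL arrays), and miR-30c-5p (-0.73, SE 0.12, adjusted p = 0.00117). By stage, 9 of 16 were lower in ES than in DP and 12 of 16 in LS than in DP. Of all tested miRNAs 46.3% were called in either direction in ES against DP, 21% of all being higher. In LS against DP these shares were 58.5% and 32.3%. Without ES 3, 13 of 16 were lower in ES than in DP and 15 of 16 in LS than in DP. Of all tested miRNAs 31.9% and 32.3% were then lower. Against DN, 0 of 16 were lower in ES and 1 of 16 in LS. Of all tested miRNAs 6.55% were called in either direction for ES and 7.42% were lower for LS. The 3 miR-29 members are not in these counts.

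Of 8 other miRNAs with a known tumour-suppressive role in T-ALL, 3 were tested. miR-155-5p, also a marker of activated lymphocytes, fell (-2.62, SE 0.77, adjusted p = 0.0146, above background on 2 of 6 T-ALL arrays), and the other two were not called, where 25.8% of all tested miRNAs were lower. Of the miRNAs known to repress enzymes of DNA or histone methylation, a function that miR-29 shares, 7 of 8 were tested. miR-101b-3p, which targets the histone methyltransferase Ezh2, rose against the average of DN and DP (0.59, SE 0.19, adjusted p = 0.0246). Its mean log2 signal was -6.16 in DP, -4.59 in ES, -4.53 in LS and -4.13 in DN. Both stages were thus above DP and below DN. miR-148a-3p, which targets Dnmt1, fell by 3.30 on the log2 scale (SE 0.73, adjusted p = 0.00392, above background on 2 of 6 T-ALL arrays and at the floor on 3), and miR-26a-5p, which targets Ezh2, fell as above. A further member fell, which makes 1 higher and 3 lower of 7 where 31.4% and 25.8% of all tested miRNAs were higher and lower. The median of the 7 was -0.16 against -0.12 for all, and without ES 3 it was -0.67 against -0.058, with 4 lower.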

How the data were processed

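Total RNA of 13 samples was measured on 1-colour Agilent miRNA arrays under the names of miRBase release 18, per the labels. The deposited scanner files hold background-subtracted spot intensities from Feature Extraction 10.7.3.1, per the file headers, which are not scaled between arrays. The authors also deposited log2 values which, judged from the values alone, were quantile normalized, and these served as an alternative. RMA, MAS5, affy and GCOS are named in the submitters' processing notes with no role.

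Control spots and outlier spots (4.03 to 8.60% per array) were left out, the remaining spots of a probe and then the probes of a miRNA were averaged, and values were scaled by the 75th percentile on that array of the 108 miRNAs above background on all 12 primary arrays. Values under -7.59 on the log2 scale were set to that floor. Detection above background required the software's mark for it on 50% or more of the kept spots of 1 probe. The 229 miRNAs above background on all 3 arrays of a group were tested in limma 3.58.1 (R 4.3.3, with files read by data.table, version 1.17.8) with lmFit and eBayes, 1 mean per group over the 12 primary arrays, and Benjamini-Hochberg adjustment over all 229 within each of 7 comparisons, at a threshold of 0.05. M295 was not in the fit, since 1 array gives no spread. Errors of group means are SDs and those of differences SEs of the fit. The number of arrays limits the precision. Marker sums add linear signals before log2.

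The 3 ratios were compared by an exact permutation test over arrays. Same-numbered replicates were not treated as pairs. Arrays lay on 2 slides, 6 primary arrays each. Slide 1 held DN 1, DP 1, ES 1, ES 2, LS 1 and LS 2, and slide 2 held DN 2, DN 3, DP 2, DP 3, ES 3 and LS 3. T-ALL and thymocytes were thus unevenly spread over the slides, and the main fit had no term for slide. The named miRNAs were the 3 members, their 5p arms, the 5 miRNAs most and the 3 least correlated with the mean of the members, and at most 3 per list, those with the greatest size of difference between T-ALL and thymocytes among the called. Members, lists and markers were chosen with earlier results of these data known. The alternatives were other scalings and background corrections, the authors' values, the total signal per miRNA, no filter on dim miRNAs, an intensity trend, single probes, blocks for slide and replicate number, each slide alone, and each array left out.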

Additional observations from a re-analysis of the deposited data

Results flagged for a closer look

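ES 3 lay apart from the other 5 T-ALL arrays for miR-29a-3p, at a log2 signal of 0.39 against -1.10 for the next, a gap of 0.725 of the range of the 6 arrays where the 95% critical value is 0.625. It also lay apart for miR-29b-3p, at -0.65 against -2.03 for the next, a gap of 0.750 of the range. For miR-29c-3p the gap was 0.607, short of the critical value. Chance gives about 1 such gap in 20 groups. ES 3 passed the critical value on the high side for 11 of the 229 tested miRNAs (4.8%). The rate of 1 in 20 covers any of the 6 arrays at either end. The count is for ES 3 on the high side alone, so that rate is no measure for it.

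M295, which entered no comparison, had miR-29a-3p at -0.42 and miR-29b-3p at -1.46, above the highest thymocyte arrays at -0.52 and -1.60. miR-29c-3p at -4.64 was below the highest thymocyte array at -3.90. These are values of 1 array, and the differences were not tested.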

How the results depend on the processing

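With 1 array left out at a time, 251 values kept their direction and their side of the threshold, 20 changed direction, 10 gained a call and 7 lost one. The range of log2 differences over the 12 arrays left out follows for every result that changed. In DN against DP it ran from 0.78 to 0.95 for miR-29a-3p, from 1.43 to 1.86 for miR-29b-3p and from 1.06 to 1.24 for miR-29c-3p. In ES against DP it ran from 0.088 to 1.11 for miR-29a-3p, from 1.06 to 1.98 for miR-29b-3p and from 0.33 to 2.15 for miR-29c-3p. In LS against DP it ran from 0.91 to 1.34 for miR-29b-3p and from -0.23 to 0.016 for miR-29c-3p. In ES against DN it ran from -0.79 to 0.23 for miR-29a-3p, from -0.63 to 0.29 for miR-29b-3p and from -0.82 to 1.00 for miR-29c-3p. In LS against DN it ran from -0.63 to -0.47 for miR-29a-3p and from -1.38 to -1.14 for miR-29c-3p. In LS against ES it ran from -0.79 to 0.24 for miR-29a-3p and from -0.80 to 0.11 for miR-29b-3p. In T-ALL against thymocytes it ran from -0.23 to 0.28 for miR-29a-3p, from 0.27 to 0.73 for miR-29b-3p and from -0.48 to 0.43 for miR-29c-3p. In T-ALL against thymocytes it ran from 0.32 to 0.56 for the log2 ratio of miR-29b over miR-29a and from -0.32 to 0.084 for the log2 ratio of miR-29c over miR-29a.

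Among the other alternatives, 256 values kept direction and side, 25 changed direction, 29 gained a call and 8 lost one, and the cause of a change was not tested unless it follows from fewer arrays. Scaling over all mouse miRNAs gave a call to miR-29a-3p (1.18) in DN against DP, miR-29a-3p (1.24) and miR-29c-3p (1.85) in ES against DP, miR-29a-3p (-1.06), miR-29b-3p (-1.02) and miR-29c-3p (-1.80) in LS against DN, miR-29a-3p (-1.12), miR-29b-3p (-1.17) and miR-29c-3p (-2.20) in LS against ES and miR-29b-3p (0.56) in T-ALL against thymocytes. It turned the direction of miR-29a-3p (0.059) and miR-29b-3p (0.15) in ES against DN. The percentile used there depended on miRNAs not above background. Quantile normalization gave a call to miR-29a-3p (0.93) in ES against DP and miR-29c-3p (-1.77) in LS against DN. It ended the call of miR-29b-3p (0.74) in LS against DP. It turned the direction of miR-29b-3p (0.11) in ES against DN and miR-29c-3p (-0.28) in T-ALL against thymocytes. The authors' deposited values gave a call to miR-29a-3p (0.98) in ES against DP and miR-29c-3p (-1.36) in LS against DN. It ended the call of miR-29b-3p (0.68) in LS against DP. It turned the direction of miR-29b-3p (0.14) in ES against DN and miR-29c-3p (-0.16) in T-ALL against thymocytes. Testing all 1122 miRNAs ended the call of miR-29b-3p (1.69) in DN against DP, miR-29b-3p (1.60) in ES against DP and miR-29b-3p (1.17) in LS against DP. Slide 1 alone ended the call of miR-29b-3p (1.54) in DN against DP, miR-29b-3p (0.88) in ES against DP and miR-29b-3p (0.92) in LS against DP. It turned the direction of miR-29a-3p (0.20) and miR-29b-3p (0.041) in LS against ES, miR-29a-3p (-0.29) and miR-29c-3p (-0.46) in T-ALL against thymocytes and miR-29c-3p (-0.74) in ES against DN. Slide 2 alone gave a call to miR-29a-3p (0.91) and miR-29c-3p (1.17) in DN against DP, miR-29a-3p (1.96) and miR-29c-3p (3.26) in ES against DP, miR-29a-3p (-1.53) and miR-29c-3p (-3.26) in LS against ES, miR-29a-3p (0.73), miR-29b-3p (1.21) and miR-29c-3p (1.05) in T-ALL against thymocytes, miR-29c-3p (2.09) in ES against DN and miR-29c-3p (-1.17) in LS against DN. It turned the direction of miR-29a-3p (1.05) and miR-29b-3p (1.02) in ES against DN and miR-29c-3p (0.0035) in LS against DP. Slide as a block turned the direction of miR-29b-3p (0.040) in ES against DN and miR-29c-3p (0.14) in LS against DP. Averaging ratios within slides turned the direction of the log2 ratio of miR-29c over miR-29a (0.071) in T-ALL against thymocytes. Normexp on the median signal turned the direction of the log2 ratio of miR-29c over miR-29a (0.035) in T-ALL against thymocytes. The first probe of each member alone turned the direction of miR-29c-3p (-0.0097) in T-ALL against thymocytes. ES 1 and ES 3 were left out together after their values had been seen, so these are values and no calls are drawn from them. They were -0.65 for the log2 ratio of miR-29c over miR-29a, -1.12 for the log2 ratio of miR-29c over miR-29b, -0.13 for miR-29a-3p and -0.82 for miR-29c-3p in T-ALL against thymocytes. They were 0.88 for miR-29a-3p and 1.15 for miR-29c-3p in DN against DP. They were -0.56 for miR-29a-3p and -1.29 for miR-29c-3p in LS against DN. They were 0.024 for miR-29a-3p and 0.21 for miR-29c-3p in LS against ES. They were -1.51 for miR-29c-3p in ES against DN. They were -0.35 for miR-29c-3p in ES against DP.

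With replicate number as a block, no member changed its side of the threshold, and the called miR-29b-3p had adjusted p of 0.0222 in DN against DP, 0.0207 in ES against DP and 0.0487 in LS against DP with unchanged log2 differences of 1.69, 1.60 and 1.17. Deviations of same-numbered arrays from their group means correlated at a median of 0.013 over 18 pairs, 6 of them over 0.1, so the numbers are not taken as pairs. The block changed the count of all called miRNAs from 15 to 6 in ES against DN and from 6 to 3 in LS against ES. The count of all called miRNAs in T-ALL against thymocytes was 131, with 30 on slide 1 alone, 150 on slide 2 alone, 102 with normexp and 100 of 1122 without the filter. In DN against DP it was 67, with 18 on slide 1, 123 on slide 2 and 42 with normexp. In ES against DP it was 106, with 29 on slide 1 and 165 on slide 2. In LS against DP it was 134, with 56 on slide 1. In ES against DN it was 15, with 3 on slide 1, 137 on slide 2, 42 under the scaling over all miRNAs, 23 under quantile normalization, 23 without ES 3, 40 without ES 2, 0 with normexp and 1 without the filter. In LS against DN it was 76, with 3 on slide 1, 118 on slide 2, 46 with normexp, 117 without ES 3 and 21 without the filter. In LS against ES it was 6, with 0 on slide 1, 114 on slide 2, 55 without ES 3, 9 under the scaling over all miRNAs, 2 under quantile normalization, 3 with normexp and 0 without the filter. Each slide alone holds 6 primary arrays, so some groups have 1 array there, assumed to vary like the other groups. The files hold no mean spot signal, so the planned normexp correction was not run, and the one on the median signal, single probes and the removal of ES 1 and ES 3 together were chosen after seeing the data. Signal over background limits miR-29c-3p most, on ES 1 and LS 1.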
